A study of Mus musculus with 20 samples.

Results

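The expression of 10 genes of the oligodendrocyte lineage, from its precursor cells to newly formed oligodendrocytes, was followed in the cortex of aged mice carrying human APOE4. They were chosen by name, Pdgfra, Cspg4, Ptprz1, Olig1, Olig2, Sox10, Nkx2-2, Gpr17, Bcas1 and Enpp6, and all 10 were found among the 23413 genes counted in each of 20 libraries. The mice, all aged 22 months, were APOE4 knock-in animals (the tm1.1(APOE*4)Adiuj allele of Apoe on a B6(SJL) background). Every group carried the human allele, so no comparison bears on genotype. From 10 months of age they had been kept for 12 months on isocaloric amounts of a control diet (CD, labelled SD) or of a ketogenic diet (KD). Females numbered 5 on the CD and 4 on the KD and males 5 on the CD and 6 on the KD, and each mouse gave 1 library of total RNA from frozen brain cortex. The comparisons ask how the lineage genes differ with diet in each sex, whether that difference depends on sex, and how they differ between the sexes. Each count was divided by the total of its library and is given as CPM (per 1000000 counts).

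Oligodendrocyte precursors are dividing glia that stay in the adult brain and give rise to the cells that make myelin. They carry the PDGF receptor encoded by Pdgfra and the proteoglycan NG2 encoded by Cspg4, and as they differentiate they pass through a committed stage marked by Gpr17 and then a newly formed stage marked by Bcas1 and Enpp6. The transcription factors Olig1, Olig2, Sox10 and Nkx2-2 act at several of these steps, and Olig2 and Sox10 remain on in mature oligodendrocytes. In a piece of tissue, fewer cells of the lineage and less RNA per cell cannot be told apart. Several of the genes are also used by other cells, Cspg4 by pericytes, Pdgfra by fibroblasts of the meninges and vessels, and Ptprz1 by astrocytes.

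The totals per library were between 12207161 and 29109990 counts. The library numbers in the labels fall into 2 series of 10, each with mice of all 4 groups, with totals of 21015275 to 29109990 in series 1 and 12207161 to 17697342 in series 2. Mouse Apoe was at 1.33 to 3.34 CPM in all 20 libraries. The libraries of 4 mice stood apart in their makeup, those of KD females E61, E68 and E207 and CD female E249. The summed level of 10 markers of cortical excitatory neurons was 585 to 682 CPM in these 4 libraries and 1052 to 1396 CPM in the other 16, and none of these markers was at 0 in any library. Markers of inhibitory neurons summed to 1606 to 2004 CPM and markers of striatum to 1139 to 3157 CPM in the same 4 libraries, whereas the fourth KD female, E227, had 828 and 341 CPM. The library of KD male E59 also stood apart and had the highest striatal sum, 3729 CPM, and a choroid plexus sum of 2370 CPM, against at most 63.3 CPM in the females and the CD males, with a cortical excitatory sum of 1087 CPM. The sum of the 10 lineage genes was 684 to 832 CPM in the 4 libraries and 411 to 557 CPM in the 16. Ptprz1 made up 319 to 505 CPM of it in the 4 and 159.7 to 336 CPM in the 16. The ranges of each single gene overlapped, such as those of Sox10, at 4.42 to 12.7 and 2.83 to 13.2 CPM. The part of this difference in makeup in the results on females was not tested, and the values without the 4 libraries are given with them. The part of E59 in the results on males was likewise not tested, and values without it are given.

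Per kilobase of annotated exon, the lineage genes covered a wide span of levels. Bcas1, which encodes a protein of newly formed, myelinating oligodendrocytes, had the highest mean, 28.7 ± 8.003 CPM per kilobase (SD, n = 20), followed by Ptprz1, a receptor phosphatase, at 19.1 ± 6.04. Olig1 and Pdgfra came next, at 9.71 ± 2.01 and 9.05 ± 2.04 CPM per kilobase, and their ranges overlapped. The mean level per kilobase was 3.86 for Olig2, 3.78 for Gpr17, 2.49 for Sox10, 1.17 for Enpp6 and 0.641 for Cspg4. Nkx2-2 was the lowest, at 0.226 CPM per kilobase, with 1 to 27 counts in a library. In this order Bcas1 and Ptprz1, Olig1 and Pdgfra, Olig2 and Gpr17, Gpr17 and Sox10, and Enpp6 and Cspg4 were closer than the sum of their SDs, and the other neighbours were farther apart. A level per kilobase is an approximation since the exons of all transcripts of a gene were joined.

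Between mice, the highest CPM of Pdgfra was 1.82 times the lowest, the smallest such ratio, and Olig1 and Olig2 varied 2.23 and 2.34 times. Gpr17 and Ptprz1 varied 3.16 times each, Enpp6 3.63 times, Bcas1 4.38 times, Sox10 4.67 times and Cspg4 5.69 times. For 9 of the genes the coefficient of variation over the mice, 20.7 to 47.4%, was well above the 1.43 to 9.25% that counting alone gives. For Nkx2-2 it was 41.9% against 37.4% from counting, so differences between mice in this gene were largely not detectable at this depth.

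The genes were placed on GRCm38 with the GENCODE M21 annotation. Olig1 (ENSMUSG00000046160.6, chr16:91269772-91271933) and Olig2 (ENSMUSG00000039830.9, chr16:91225457-91228677) lie on the same strand with 41094 bases between them. Pdgfra (ENSMUSG00000029231.15) lies at chr5:75152292-75198215, Cspg4 (ENSMUSG00000032911.6) at chr9:56865033-56899870 and Ptprz1 (ENSMUSG00000068748.7) at chr6:22875502-23052916, all on the plus strand. Sox10 (ENSMUSG00000033006.10) lies at chr15:79154908-79165240, Nkx2-2 (ENSMUSG00000027434.11) at chr2:147177546-147194243 and Bcas1 (ENSMUSG00000013523.13) at chr2:170346991-170427845, all on the minus strand. Enpp6 (ENSMUSG00000038173.15) lies on the plus strand at chr8:46986887-47096762. Pdgfra, Olig1, Nkx2-2, Bcas1 and Enpp6 overlap noncoding genes of the opposite strand. The kit keeps strand, but which strand was counted is not given in the sources used here, so the counts of these 5 genes may hold reads of their neighbours.

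RefSeq promoters on GRCm38.p6 were found for 6 of the 10 genes, Pdgfra, Cspg4, Olig2, Nkx2-2, Enpp6 and Ptprz1. Those of Olig1, Sox10, Bcas1 and Gpr17 are not shown. The 250 bases before the start were searched on both strands for the E-box CANNTG, which basic helix-loop-helix factors such as Olig1 and Olig2 recognise, for ACAAAG or ACAATG, the core recognised by SOX factors, and for TNAAGTG, a core recognised by Nkx2-2 and its relatives. Of 32851 promoters in the table, 66.2% held the E-box, 25.2% a SOX core and 10.1% TNAAGTG. The windows of Pdgfra, Ptprz1 and Enpp6 hold no annotated exon and are shown because Pdgfra and Ptprz1 are the most closely correlated pair with both promoters at hand, and Enpp6 is the gene closest to the myelin genes in the values that follow. Capitals mark the matches, the E-box in Pdgfra, ACAATG and TGAAGTG in Enpp6, and no match in Ptprz1.
Pdgfra, chr5:75152001-75152250, plus strand: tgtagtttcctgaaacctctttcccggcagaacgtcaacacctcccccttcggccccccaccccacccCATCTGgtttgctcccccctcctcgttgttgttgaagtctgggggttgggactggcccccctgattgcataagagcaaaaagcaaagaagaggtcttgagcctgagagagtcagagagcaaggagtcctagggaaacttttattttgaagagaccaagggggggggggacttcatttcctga
Ptprz1, chr6:22875252-22875501, plus strand: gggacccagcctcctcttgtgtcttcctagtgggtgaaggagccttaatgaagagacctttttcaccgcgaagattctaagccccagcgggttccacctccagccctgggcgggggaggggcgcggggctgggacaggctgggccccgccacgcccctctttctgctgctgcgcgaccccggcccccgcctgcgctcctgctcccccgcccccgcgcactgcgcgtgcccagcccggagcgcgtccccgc
Enpp6, chr8:46986637-46986886, plus strand: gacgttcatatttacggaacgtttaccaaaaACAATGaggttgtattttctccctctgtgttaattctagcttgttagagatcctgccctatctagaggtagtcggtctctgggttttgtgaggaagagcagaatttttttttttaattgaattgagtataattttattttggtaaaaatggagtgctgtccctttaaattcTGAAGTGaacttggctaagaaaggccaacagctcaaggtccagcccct
Olig2 held 1 ACAATG match and Nkx2-2 held 3 E-boxes, one of which overlapped its match to TNAAGTG, while Cspg4 held no match in this window.

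In females, Olig1 was higher in each KD library than in each CD library, Gpr17 had a larger fold change than Olig1, and none of the 10 genes passed the threshold of the study, an FDR of 0.1 and a 1.5-fold change. Over all genes, 0.0447% passed it in females by edgeR's quasi-likelihood test (7 of 15660). The share was 1.4% by edgeR's likelihood ratio test, 1.62% by DESeq2's Wald test and 1.62% with 2 RUVg factors, and in each of these none of the 10 passed. The study, which also used RUVg, reported more genes at this threshold in each sex than any of these fits gave. The 95% interval of the fold change reached 1.5-fold for 8 of the 10 genes in females, all but Olig1 and Olig2, and for 7 of the 10 in males. At an unadjusted p under 0.05, Olig1 and Gpr17 were higher on the KD, 2 of 10 lineage genes against 5.86% of all genes. The fitted difference was above 0 for 9 of the 10 genes, against 52.7% of all genes, with a median of 0.29 on the log2 scale against 0.01 over all genes. Some of these genes vary together over mice, such as Olig1 with Olig2, so the 9 are not 9 separate observations. Single mice decided how many had a p under 0.05 in females. The count was 5 without CD female E249, namely Pdgfra, Olig1, Olig2, Gpr17 and Ptprz1, and 4 without KD female E227, in fits in which 18.7% and 17.5% of all genes had such a p against 11.4% with all mice, whereas it was 0 without CD female E62, CD female E67 or KD female E207. E249 was the only CD female among the 4 libraries low in cortical excitatory markers, and E227 the only KD female outside them. Leaving out either mouse brought diet and this difference in makeup closer together in the females. The part of makeup in these counts was not tested. The count at a p under 0.05 was 0 as well with the striatal or the cortical excitatory score as a covariate and with 2 RUVg factors in place of the series. The count of genes above 0 was 7 of 10 with either score, 9 with the 2 RUVg factors and 6 in series 2 alone. Without the 4 libraries low in cortical excitatory markers the count was 8 of 10, with 0 at a p under 0.05. In that fit the females on the KD are E227 alone, and the log2 fold change was 0.33 ± 0.22 for Olig2, 0.29 ± 0.42 for Sox10, 0.42 ± 0.55 for Cspg4, 0.17 ± 0.52 for Enpp6, 0.03 ± 0.48 for Bcas1 and -0.10 ± 0.96 for Nkx2-2. In males, 0 of the 10 genes passed the threshold and 0 of 15660 genes did so (0%). At an unadjusted p under 0.05 there were 0 lineage genes and 3.56% of all genes, and the fitted difference was above 0 for 4 of the 10, against 49.1% of all genes. Without KD male E59 it was also 4 of 10, with 0 at a p under 0.05.

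**Figure D1:**
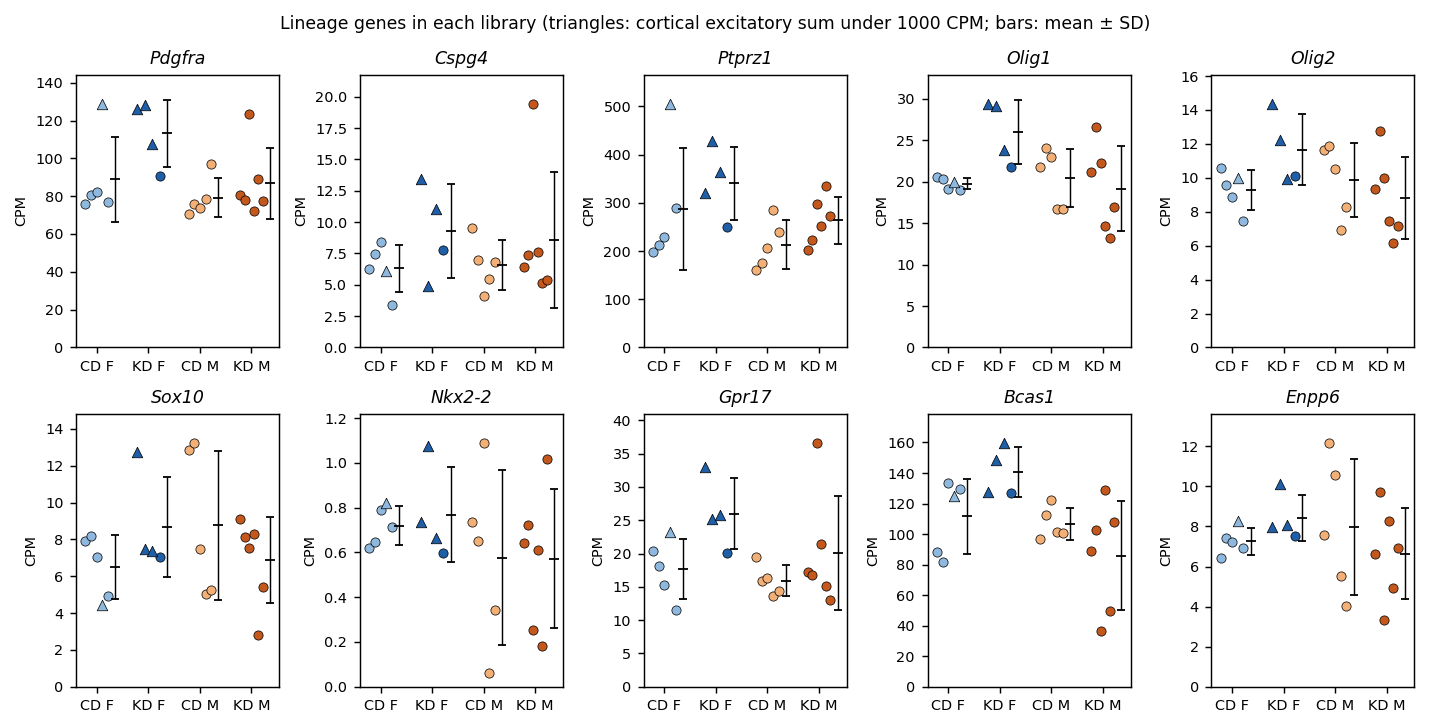
Level of each lineage gene (CPM, linear axis from 0) in each library of the 4 groups, with F for females and M for males. Points are single mice, triangles the 4 libraries with a summed cortical excitatory level under 1000 CPM, and bars the mean ± SD of a group. In Olig1 the 4 KD females, at 21.7 to 29.4 CPM, lie above the 5 CD females, at 18.98 to 20.5 CPM.

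Olig1 encodes a transcription factor of the lineage that is needed for the maturation of oligodendrocytes and for remyelination. Its level in CD females was 18.98, 19.1, 19.9, 20.3 and 20.5 CPM, and in KD females it was 21.7, 23.8, 29.2 and 29.4 CPM. The females did not overlap, and both KD females of series 1 (E61 and E68) were higher than both of series 2. Among all genes, 1.7% had every KD female above every CD female, and Olig1 was the single lineage gene to do so. None of the 10 had every KD female below every CD female (0.402% of all genes), and in males none was separate either way (0.102% of all genes higher and 0.115% lower on the KD). The fitted log2 fold change was 0.28 ± 0.12 (SE), with a 95% interval from 0.03 to 0.54 and an adjusted p of 0.37 by edgeR's quasi-likelihood test. In the two-sided exact permutation test of mean log2 CPM p was 0.00794, the smallest that 126 splits of the females can give, and 0.159 after adjustment over the 20 tests of the lineage genes. When mice were exchanged only within a library series p was 0.0167, the smallest value of that exact test, and 0.333 after adjustment. Without the 4 libraries low in cortical excitatory markers the fitted value was 0.26 ± 0.21, and it rested on 1 KD female, E227, at 21.7 CPM, whose spread was assumed to be that of the other groups. In males, CD mice had 16.7, 16.7, 21.8, 23.0 and 24.1 CPM, and KD mice ranged from 13.2 to 26.6 CPM with a median of 19.05. The males overlapped over nearly their whole range, with E59 the highest, a log2 fold change of -0.08 ± 0.11 and an adjusted p of 0.9998 by edgeR.

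Olig2, the factor that specifies the lineage, was at 7.47, 8.87, 9.56, 9.99 and 10.6 CPM in CD females and at 9.93, 10.1, 12.2 and 14.4 CPM in KD females. Here the groups overlapped by 2 CD and 2 KD mice, and the log2 fold change was 0.21 ± 0.13 with an interval from -0.07 to 0.49. In males it was -0.13 ± 0.12. Sox10, which drives the program of myelin genes together with Olig2, was at 4.42, 4.92, 7.06, 7.90 and 8.19 CPM in CD females and at 7.06, 7.36, 7.50 and 12.7 CPM in KD females. One KD female, E61, was far above the other 3, which lay within the range of the CD mice, and the log2 fold change was 0.29 ± 0.25. In males Sox10 differed by -0.25 ± 0.22, with CD mice from 5.02 to 13.2 CPM and KD mice from 2.83 to 9.12 CPM. Nkx2-2, a factor of the step from precursor to oligodendrocyte, had log2 fold changes of -0.00 ± 0.36 in females and -0.01 ± 0.45 in males, with intervals from -0.75 to 0.75 and from -0.95 to 0.93, so a change of 1.5-fold either way was not detectable at this depth.

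Gpr17 (ENSMUSG00000052229.5, chr18:31942997-31949636, minus strand), a receptor of committed precursors, lies inside Lims2, a gene of the opposite strand with its own row of counts, and its counts may hold reads of Lims2 for the same reason. Of the lineage genes with a p under 0.05 in females, Olig1 and Gpr17, it had the larger fold change. Gpr17 was at 11.6, 15.3, 18.2, 20.3 and 23.3 CPM in CD females and at 20.2, 25.1, 25.8 and 33.0 CPM in KD females. The groups overlapped through CD females E62 and E249 and KD female E227. The log2 fold change was 0.46 ± 0.21, with an interval from 0.01 to 0.90, an adjusted p of 0.42 by edgeR and p = 0.0476 in the exact permutation test, which is 0.357 after adjustment. Without CD female E249 it passed the threshold, at a log2 fold change of 0.63 and an adjusted p of 0.0757 by edgeR, in a fit in which 6.66% of all genes passed. In that fit all females low in cortical excitatory markers were on the KD. Without the 4 libraries low in these markers, E249 among them, the log2 fold change of Gpr17 was 0.46 ± 0.33, with E227 as the only KD female. In males, CD mice had 13.7, 14.3, 15.9, 16.3 and 19.5 CPM, and KD mice ranged from 12.99 to 36.6 CPM with a median of 17.0. The log2 fold change in males was 0.33 ± 0.19, and it fell to 0.11 without KD male E64, the mouse at 36.6 CPM. Averaged over the sexes, Gpr17 was the single lineage gene at an unadjusted p under 0.05 (13.9% of all genes were), with a log2 fold change of 0.39 ± 0.14 and an adjusted p of 0.21. The threshold was passed by 0 of the 10 genes in that comparison and by 0.268% of all genes.

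Among the receptors and proteoglycans of precursors, Pdgfra encodes the receptor for the mitogen PDGF. CD females had 75.9, 76.96, 80.4, 82.0 and 129 CPM of it, and KD females 90.8, 108, 126 and 128 CPM. All 4 KD females were above 4 of the CD females, and the fifth CD female, E249, was the highest of all. The log2 fold change was 0.29 ± 0.17. It was 0.46 without E249 and 0.11 ± 0.22 without the 4 libraries low in cortical excitatory markers. Within library series 1 it was 0.66 (adjusted p = 0.101 by edgeR), and within series 2 it was -0.02. In series 1 both KD females and neither CD female were low in cortical excitatory markers, so diet and makeup cannot be told apart there. In series 2 the low libraries were those of KD female E207 and CD female E249. In males Pdgfra was at 70.7 to 96.8 CPM on the CD and at 72.3 to 124 CPM on the KD, with a log2 fold change of 0.12 ± 0.15.

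Cspg4, the NG2 proteoglycan, was at 3.41, 6.06, 6.23, 7.46 and 8.42 CPM in CD females and at 4.91, 7.77, 11.04 and 13.4 CPM in KD females. The lowest KD female lay among the lowest CD females, and the log2 fold change was 0.47 ± 0.35, which was 0.29 without KD female E207 and 0.71 without KD female E68. In males it was 0.37 ± 0.31, and -0.02 without KD male E64, which had 19.4 CPM against 5.18 to 7.60 CPM in the other 5 KD males. Ptprz1, which encodes a receptor of the growth factor pleiotrophin, was at 198, 213.3, 229, 289.6 and 505 CPM in CD females and at 249.5, 319, 364 and 427 CPM in KD females. The highest value again belonged to CD female E249. The log2 fold change was 0.28 ± 0.23 over both series, 0.82 in series 1 alone, where it passed the threshold (adjusted p = 0.082 by edgeR) along with 5.42% of all genes, and -0.22 in series 2 alone. In series 1 both KD females and neither CD female were among the 4 libraries low in cortical excitatory markers, so diet and makeup cannot be told apart there. In series 2 the low libraries were those of KD female E207 and CD female E249. The log2 fold change of Ptprz1 was 0.067 without KD female E68 and 0.52 without CD female E249. Without the 4 libraries low in cortical excitatory markers it was -0.17 ± 0.24. In males it was 0.27 ± 0.21, with 159.7 to 285 CPM on the CD and 203 to 336 CPM on the KD.

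Bcas1 and Enpp6 mark newly formed oligodendrocytes, and neither had a p under 0.05 in either sex. Bcas1 was at 81.8, 88.6, 125, 129.6 and 134 CPM in CD females and at 127, 128, 149 and 159.6 CPM in KD females, a log2 fold change of 0.32 ± 0.26. In males it was at 96.7 to 122 CPM on the CD and at 36.5 to 129 CPM on the KD, a log2 fold change of -0.37 ± 0.24, or -0.20 without KD male E64. The KD males E64 at 36.5 CPM and E254 at 49.4 CPM lay far below the other 4 KD males, at 89.2 to 129 CPM. Enpp6, a phosphodiesterase of choline metabolism, ranged from 6.42 to 8.27 CPM in CD females and from 7.54 to 10.1 CPM in KD females, a log2 fold change of 0.13 ± 0.29, or 0.028 without CD female E62. In males Enpp6 ranged from 4.02 to 12.2 CPM on the CD and from 3.35 to 9.71 CPM on the KD, a log2 fold change of -0.23 ± 0.26, and E64 was the lowest mouse of all. It was -0.040 without E64 and -0.42 without CD male E264.

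**Figure D2:**
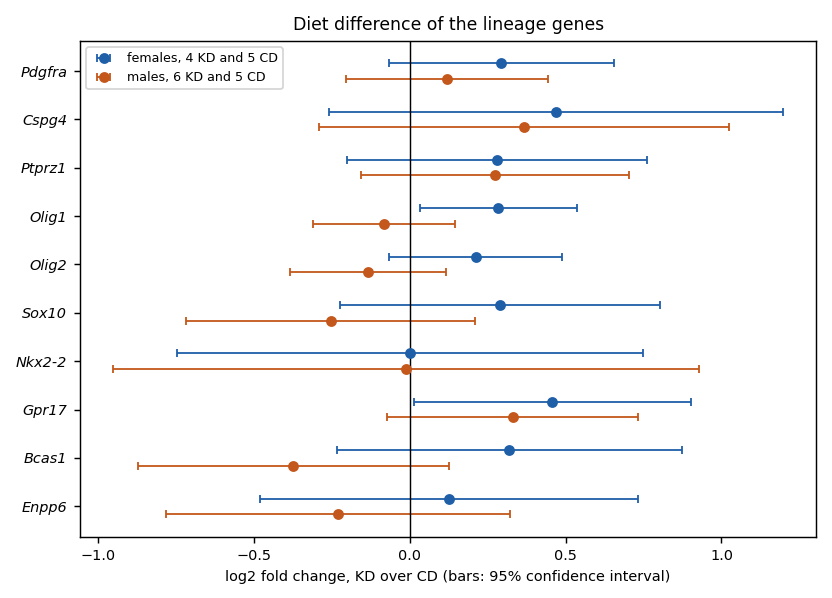
Fitted log2 fold change of each lineage gene on the KD relative to the CD, in females (blue) and males (orange), with bars for the 95% confidence interval. The intervals of Olig1 and Gpr17 in females lie above 0, from 0.03 and 0.01, and all others cross 0.

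The difference between the sexes in their response to diet was tested as an interaction. The effect of the KD in females minus that in males was above 0 for 10 of the 10 genes, by 0.01 for Ptprz1 and for Nkx2-2, against 51.3% of all genes, and 0 of the 10 genes and 0% of all genes passed the threshold. It was above 0 for 8 of the 10 with DESeq2's size factors, with no filter on low counts, or without CD female E62 or E67. With the myelin score as a covariate or in series 2 alone it was above 0 for 7, and with the cortical excitatory score for 6. Olig1 was the single lineage gene with an unadjusted p under 0.05 (2.14% of all genes were), with a difference of 0.37 ± 0.16 on the log2 scale, an interval from 0.03 to 0.71 and an adjusted p of 0.9999 by edgeR. The largest difference was that of Bcas1, 0.69 ± 0.36, with an interval from -0.06 to 1.45. Its mean was higher in KD than in CD females, and among the males the KD mice E64 and E254 were the lowest. Without the 4 libraries low in cortical excitatory markers the interaction was above 0 for 7 of the 10 genes, and that of Olig1 was 0.35 ± 0.24. The count at a p under 0.05 ran from 0, among others without CD female E62 or E67, to 3 without KD male E59, where 4.18% of all genes had such a p.

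Between the sexes, averaged over both diets, the fitted level was higher in females for 10 of the 10 genes, against 50.8% of all genes. It was higher for 7 of the 10 with the cortical excitatory score as a covariate or in series 1 alone. Some of these genes vary together over mice, so the 10 are not 10 separate observations. On the CD alone, without adjustment for series, mean CPM was lower in females for Olig1, Olig2, Sox10, Enpp6 and Cspg4. For Olig1 it was 19.75 CPM in females and 20.4 CPM in males. The other genes had the higher mean in females on the CD, as all 10 had on the KD. None of the 10 passed the threshold, which 0.134% of all genes did. At an unadjusted p under 0.05, 4 of the 10 were higher in females, against 8.59% of all genes. These were Olig1 at a log2 difference of 0.24 ± 0.08 (adjusted p = 0.23), Pdgfra at 0.26 ± 0.12, Olig2 at 0.21 ± 0.09 and Ptprz1 at 0.36 ± 0.15. The 4 libraries low in cortical excitatory markers are all from females. Without them the difference was 0.19 ± 0.12 for Olig1 and 0.20 ± 0.13 for Olig2, and it was 0.01 ± 0.13 for Pdgfra and -0.11 ± 0.14 for Ptprz1. Without CD female E249 alone, 1 of the 10 had a p under 0.05, and so did 9.41% of all genes.

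**Figure D3:**
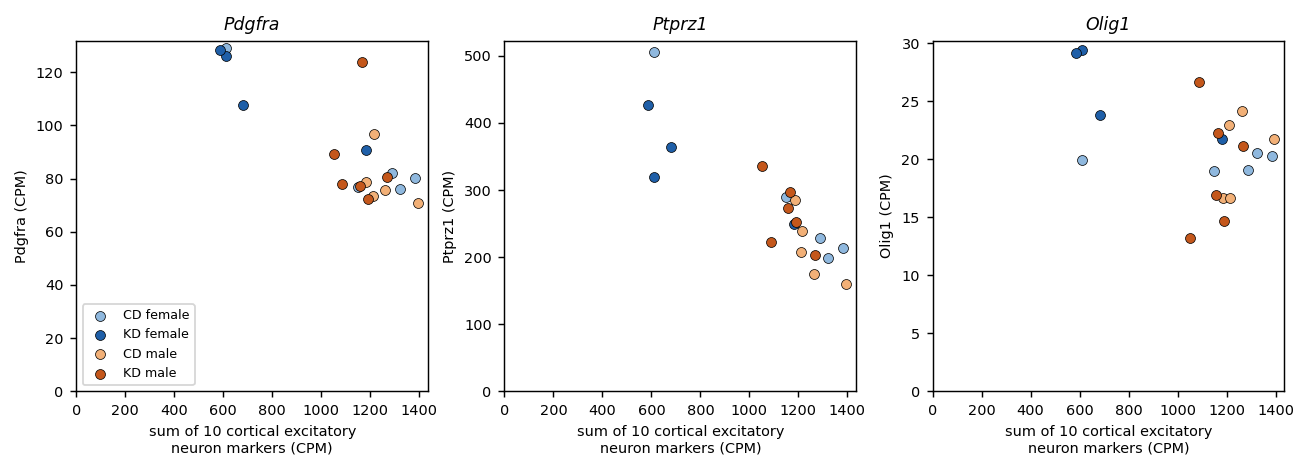
Levels of Pdgfra, Ptprz1 and Olig1 (CPM) against the summed level of 10 markers of cortical excitatory neurons (CPM), 1 point per library, colored by group. The 4 libraries at 585 to 682 CPM on the horizontal axis hold 319 to 505 CPM of Ptprz1 and 108 to 129 CPM of Pdgfra, and the Pdgfra level of KD male E64, at 124 CPM, lies in that range with a cortical sum of 1167 CPM.

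The lineage genes did not vary as a single block across the mice. Over the 20 libraries, 9 of the 45 pairs were correlated at an adjusted permutation p under 0.05, all of them positively by Pearson r, and the median r over the 45 pairs was 0.35, with 14 pairs below 0. By rho 12 pairs passed, 8 of them among the 9, and on a scale set by the upper quartile 10 passed, again 8 of them among the 9. The negative pair of Sox10 and Ptprz1 was among those that passed by either of these. The closest pair was Olig1 and Olig2, with a Pearson r of 0.93 and a Spearman rho of 0.91 (permutation test, adjusted p = 0.00045 for r), 0.91 without the 2 libraries farthest from the median of Olig1, 0.86 and 0.87 within series 1 and 2, and 0.92 in the 16 libraries high in cortical excitatory markers. Pdgfra and Ptprz1 followed, with an r of 0.79 and a rho of 0.73. That pair rested in part on the 4 libraries, with an r of 0.50 in the other 16. Olig2 and Sox10 had an r of 0.76 and a rho of 0.61, with 0.49 and 0.54 within the series and 0.82 in the 16 libraries.

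At the other end, Sox10 and Ptprz1 had an r of -0.54, with an adjusted p of 0.0651 by the permutation test, and a rho of -0.58, which passed (adjusted p = 0.0397). The r of this pair was -0.86 in the 16 libraries, -0.36 and -0.43 within series 1 and 2, and -0.46 without the 2 libraries farthest from the median of Sox10. The pairs Cspg4 with Bcas1 and Cspg4 with Enpp6 had r of -0.31 and -0.30 and changed sign without the 2 libraries farthest from the median, KD male E64 and CD female E265, to 0.30 and 0.04. Bcas1 and Enpp6, the markers of newly formed cells, had an r of 0.70, which was 0.38 without KD males E64 and E254. The genes of a pair are read from the same libraries, so differences between libraries in tissue makeup, depth and series enter each correlation.

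**Figure D4:**
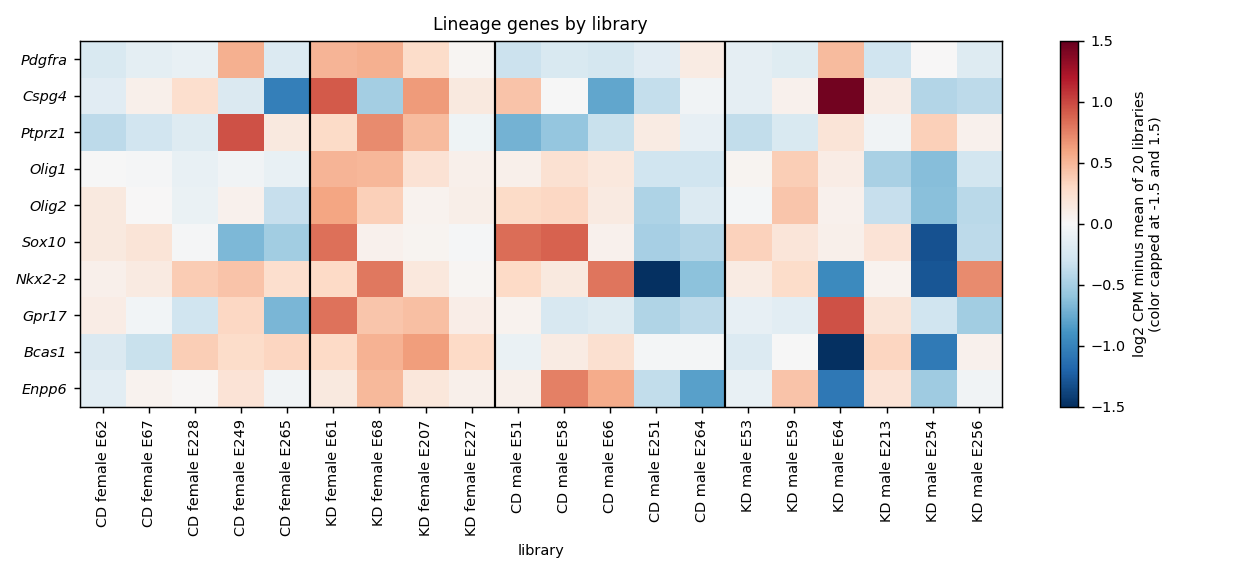
Deviation of log2 CPM of each lineage gene from its mean over the 20 libraries, with libraries ordered by group and series. Red is above and blue below the mean, with colors capped at 1.5 either way. KD male E64 is red in Cspg4 and Gpr17 and blue in Bcas1 and Enpp6, and KD male E254 is blue in Sox10, Nkx2-2 and Bcas1.

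Scores of marker lists, the mean z-score of log2 CPM of the genes of a list other than the gene itself, separated the lineage genes further. With 140 relations computed, correlations were read in the 16 libraries high in cortical excitatory markers, since the other 4 form a cluster of their own, and p-values are from permutation tests adjusted over the 140. Of the 140, 25 passed by r and 12 by rho at an adjusted p under 0.05. Enpp6 followed the 15 myelin genes, with an r of 0.88 (adjusted p = 0.0014) and a rho of 0.86 (adjusted p = 0.0035), and r was 0.86 without the 2 libraries farthest from the median of the score. Bcas1 had an r of 0.82 with the myelin genes (adjusted p = 0.0105) but a rho of 0.46 (adjusted p = 0.228), and r was 0.24 without the 2 farthest libraries, so that relation rested on them. Cspg4 and Gpr17 followed the 20 genes of precursor signalling, with r of 0.93 and 0.85, rho of 0.91 and 0.71, and r of 0.82 and 0.60 without the 2 farthest. Cspg4 also followed the pericyte markers, with an r of 0.71 and a rho of 0.77. Pdgfra had an r of 0.86 with the fibroblast markers of meninges and vessels (adjusted p = 0.0026) and 0.83 with those of astrocytes, while its rho of 0.64 and 0.60 did not pass (adjusted p = 0.0548 and 0.0819). Without the 2 farthest libraries its r was 0.68 with the fibroblast and 0.38 with the astrocyte markers, so the latter relation rested on them. Olig1 and Olig2 followed the markers of inhibitory neurons, with r of 0.84 and 0.85 (adjusted p = 0.0014 for each) and rho of 0.76 and 0.84, and Ptprz1 went against them, with an r of -0.78 and a rho of -0.77. In these 16 libraries the inhibitory score was -0.05 to 0.31 in series 1 and -0.86 to -0.009 in series 2. Olig1 and Olig2 averaged higher in series 1 and Ptprz1 in series 2. The permutations did not hold series fixed, and the part of series in these relations was not tested. None of the markers of astrocytes, pericytes, fibroblasts or inhibitory neurons was at 0 in any library.

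**Figure D5:**
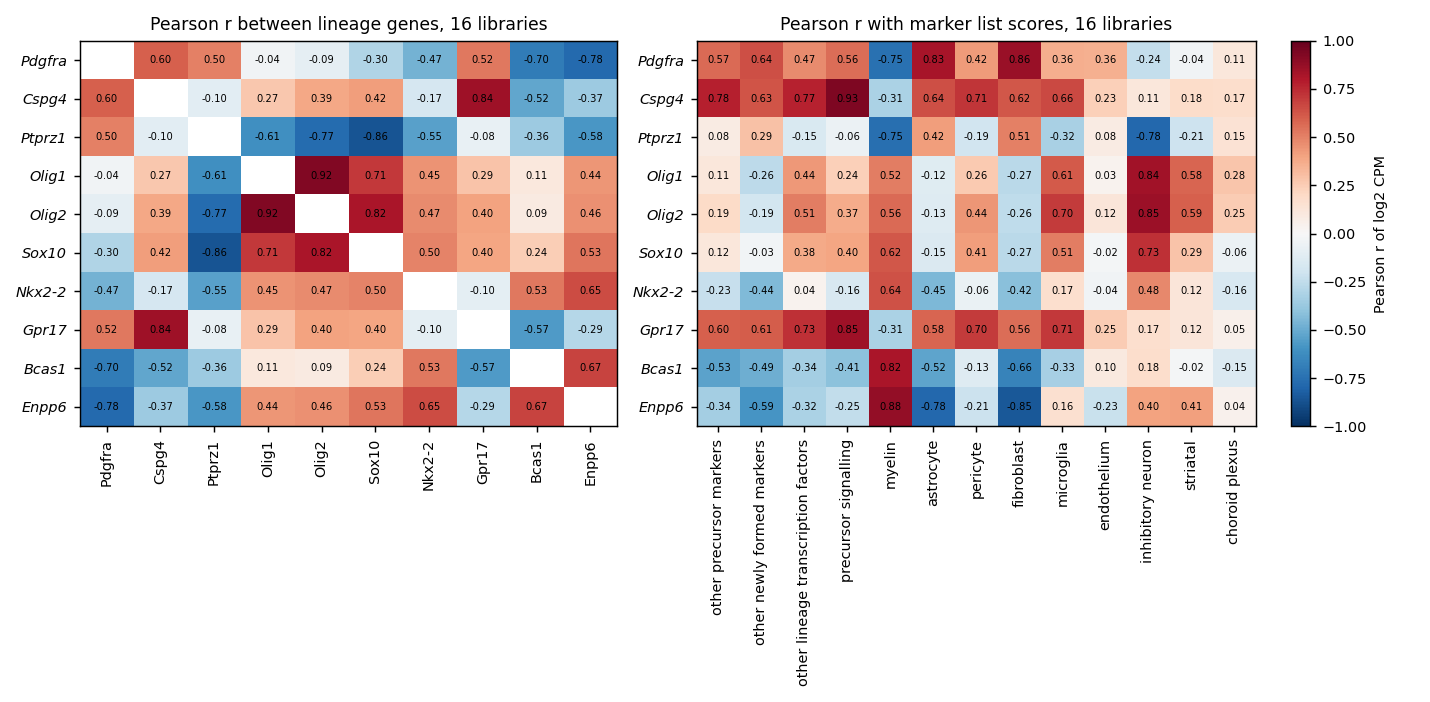
Pearson r of log2 CPM over the 16 libraries high in cortical excitatory markers, between the lineage genes (left) and between each gene and the score of each marker list (right), with red for positive and blue for negative values and r printed in each cell. Olig1 and Olig2 reach 0.92, Sox10 and Ptprz1 -0.86, and Enpp6 and the myelin score 0.88.

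The KD males E64 and E254 held many of the extreme values. E64 had the highest Cspg4 (19.4 CPM) and Gpr17 (36.6 CPM) and the lowest Bcas1 (36.5 CPM) and Enpp6 (3.35 CPM) of all 20 libraries. Its myelin genes summed to 1816 CPM, the lowest of the 20, and its fibroblast markers, Pdgfra among them, to 611 CPM, the highest. E254 had the lowest Olig1 (13.2 CPM), Olig2 (6.14 CPM) and Sox10 (2.83 CPM) and a myelin sum of 2044 CPM, while the median of the KD males was 3745 CPM. In the other groups myelin summed to 3250 to 5839 CPM. The KD males other than E64 and E254 had 3673 to 5171 CPM, within the 3250 to 5839 CPM of the CD males. The 15 myelin genes were lower on the KD in males for 15 of 15 (49.1% of all genes were above 0), with 3 at an unadjusted p under 0.05 (3.56% of all genes were) and a median log2 fold change of -0.43. Without KD male E59, 8 had such a p (4.96% of all genes did) and the median was -0.56. No fit left out both E64 and E254. The 15 genes are read from the same libraries, so they are not 15 separate observations. In females the myelin genes were higher on the KD for 14 of 15 (52.7% of all genes were above 0), with 0 at a p under 0.05 and a median of 0.22. None of them passed the threshold in either sex. With the myelin score as a covariate the log2 fold change of Bcas1 in males was 0.02 and that of Enpp6 was 0.22.

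The library series also moved with some of the genes. Sox10 averaged 9.46 ± 2.45 CPM in series 1 and 5.76 ± 1.64 CPM in series 2 (SD, n = 10 each). Olig1 averaged 23.8 ± 3.42 and 18.2 ± 3.20 CPM, and Olig2 11.3 ± 1.58 and 8.23 ± 1.43 CPM. Ptprz1 went the other way, with 242 ± 82.0 and 302 ± 83.1 CPM. The series was a term of the fits reported here over both series, except those with RUVg factors or with no series term.

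None of the other genes of the lineage passed the threshold on the KD in either sex. Their counts in females stand against 52.7% of all genes above 0 and 11.4% at an unadjusted p under 0.05, and in males against 3.56% at such a p. Of 17 further precursor markers, 9 had a fitted value above 0 in females and 8 below, with 2 in each direction at an unadjusted p under 0.05. Cacng4, a subunit that accompanies AMPA receptors and calcium channels, was at 1.38 ± 0.42 on the log2 scale (adjusted p = 0.23 by edgeR), with 0.953 to 2.27 CPM in CD females and 1.14 to 6.79 CPM in KD females, and Lhfpl3 had 0.89 ± 0.37. Susd5 and Dscam had -0.50 ± 0.20 and -0.33 ± 0.14. Of 15 further markers of newly formed oligodendrocytes, 11 were above 0, with Tcf7l2, the Wnt effector of that stage, at 1.16 ± 0.33 (adjusted p = 0.21) and Itpr2 at 0.36 ± 0.12, and with Rap2a and Rras2 at -0.38 ± 0.16 and -0.34 ± 0.15. In males, 1 of the 17 and 0 of the 15 had a p under 0.05, Rlbp1 at 0.32 ± 0.15.

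Of the 14 further transcription factors tested, 10 were above 0 in females, and 4 of these had a p under 0.05. They included Sox11 at 1.08 ± 0.30 and Id4, an inhibitor of differentiation, at 0.84 ± 0.26. A further 3 had a p under 0.05 below 0, among them Zeb2, which promotes myelination, at -0.63 ± 0.16 and Sox5 at -0.69 ± 0.19. Mean levels in CD females were 312 CPM for Zeb2 and 57.3 CPM for Sox5, against 6.50 CPM for Sox10 and 9.29 CPM for Olig2. How much of the level of a gene of these 4 lists comes from cells of the lineage was not tested. The lowest adjusted p among the 14 factors was 0.19 by edgeR, that of Zeb2. Of the 20 genes of precursor signalling, 15 were above 0, among them Dll1, a Notch ligand, at 1.01 ± 0.28 and Fgfr1 at 0.40 ± 0.18, and 0 had a p under 0.05 below 0. In males Sox11 was at 0.66 ± 0.27 and Tnc, a matrix protein of precursors, at 0.91 ± 0.42, the only genes of these 2 lists with a p under 0.05. Without KD male E59 the log2 fold changes were 0.76 for Sox11, 1.10 for Tnc and 0.36 for Rlbp1, each again at a p under 0.05. In females, without the 4 libraries low in cortical excitatory markers, 0 of the 14 genes named from these 4 lists had a p under 0.05, and 12 had the same sign. The sign changed for Lhfpl3, then at -0.19 ± 0.26, and for Rap2a, then at 0.07 ± 0.22. Among the other larger ones Cacng4 was then at 0.03 ± 0.70, Tcf7l2 at 0.11 ± 0.37, Sox11 at 0.38 ± 0.38, Id4 at 0.09 ± 0.27 and Dll1 at 0.77 ± 0.46. The markers of cortical excitatory neurons were below 0 in females for 10 of 10, with 6 at a p under 0.05 and a median of -0.97, and those of striatum above 0 for 12 of 12, with 10 at a p under 0.05 and a median of 2.13. For microglia, 12 of 12 markers were above 0 in females with a median of 0.26, for fibroblasts 11 of 11 with 0.34, for astrocytes 9 of 12 with 0.19 and for pericytes 6 of 10 with 0.20. The fibroblast list holds Pdgfra and the pericyte list holds Cspg4, so the counts, medians and sums of these lists include a lineage gene. In males, choroid plexus markers were above 0 for 8 of 8, with 7 at a p under 0.05 and a median of 2.005, striatal markers for 12 of 12, with 1 at a p under 0.05 and a median of 1.28, and fibroblast markers for 11 of 11, with 2 at a p under 0.05 and a median of 0.74, and cortical excitatory markers were below 0 for 10 of 10, with 0 at a p under 0.05 and a median of -0.20. Without KD male E59 the medians were 0.10 for choroid plexus (7 genes tested), -0.35 for striatum and 0.81 for fibroblasts. The part of these differences in the lineage values of the males was not tested.

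Among the other genes tested, those whose log2 CPM was most like the mean z-score of the 10 lineage genes over 20 libraries were Nacc2 (Pearson r of 0.92), Tmcc3, Scd2, P2rx7, Lhfpl5, Slc32a1, C4b, Ctss, Snx33 and Hip1 (r of 0.87). Scd2 makes monounsaturated fatty acids, Slc32a1 is the vesicular transporter of GABA and is among the markers of inhibitory neurons, and C4b and Ctss encode a complement component and cathepsin S. Within the series these 10 genes had r of 0.76 to 0.94 in series 1 and 0.82 to 0.93 in series 2. The mean z-score was highest in the libraries low in cortical excitatory markers. It was 1.23 in KD female E61, 0.97 in KD female E68, 0.71 in KD female E207 and 0.48 in CD female E249. In the other libraries it was at most 0.28, in CD male E58. Both series hold libraries low in these markers, so the r within a series include them. The part of their makeup in this ranking was not tested.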

How the data were processed

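RNA-seq libraries of brain cortex from 20 APOE4 mice were analysed, 1 per mouse, and the label SD stands for the CD. With STAR, the authors aligned reads to mm10 and, as they state, counted them per gene with its built-in HTSeq counter, and these counts were deposited without normalization. Versions, annotation and counted strand are not given in the sources used here. None of the 41 pairs of libraries within a group agreed within sampling noise (the lowest chi-square per degree of freedom was 7.25). That mice were separate animals is taken from their numbers in the labels.

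From these counts, CPM (per 1000000) were computed, and log2 CPM after adding a prior count of 2. edgeR 4.0.16 under R 4.3.3 served for the tests, on all 15660 genes that passed filterByExpr, with upper-quartile normalization, 4 groups and the library series in one fit, the robust quasi-likelihood F test and Benjamini-Hochberg adjustment, and genes were called at an FDR of 0.1 and a 1.5-fold change. Intervals of fold changes are at 95%. The study also used RUVg, whose number of factors and control genes are not given in the sources used here, so RUVg was an alternative, with all but the 5000 genes of smallest p as controls. Exact permutation tests were two-sided, and correlations used 100000 permutations. Groups came from the labels. The lineage genes and the 14 other lists, and the tests, were chosen with earlier results of these data known. The genes named are the 10 lineage genes, in the averaged, interaction and sex comparisons those with a p under 0.05 (Bcas1 in the interaction was added after its values were seen), the 2 of smallest p in each direction from 4 lists, the 10 most alike, and the 3 highest and 3 lowest pairs (Bcas1 with Enpp6 was added after its values were seen). In the males only the genes of these lists with a p under 0.05 are named. Of the marker genes 1, Dlx6os1, was not found. Alternatives were TMM, the size factors or the Wald test of DESeq2 1.42.0, other filters and thresholds, no series term, each series or sex alone, marker scores as covariates and leaving out each mouse. The cortical excitatory score as a covariate and the fit and correlations over the 16 libraries with at least 1000 CPM of its markers, and values of the other lists without these 4 libraries or KD male E59, were chosen after the data were seen. The fits were tested on simulated counts. The depth of a library, 12207161 counts or more, limits Nkx2-2, with at most 27 counts.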

Additional observations from a re-analysis of the deposited data

Results flagged for a closer look

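In 40 groups of mice (10 genes in 4 groups), a mouse stood far from the rest of its group in 3, by the gap to its nearest neighbour as a share of the whole range on the log2 scale. Chance gives about 1 in 20 groups, or 2.0 of 40. Pdgfra in CD female E249 had a gap of 0.853 of the range, at 129 CPM against 75.9 to 82.0 CPM in the other 4 CD females, and this library is among the 4 with low levels of cortical excitatory markers. Sox10 in KD female E61 had a gap of 0.898, at 12.7 CPM against 7.06 to 7.50 CPM in the other 3 KD females. This library too is among those 4, but so are those of KD females E68 and E207, at 7.50 and 7.36 CPM. CD female E249 had 4.42 CPM of Sox10, the lowest of the females. Cspg4 in KD male E64 had a gap of 0.712, at 19.4 CPM against 5.18 to 7.60 CPM in the other 5 KD males, in the library with the lowest myelin and the highest fibroblast sum.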

How the results depend on the processing

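The number of lineage genes called was 0 in all 5 comparisons under normalization by TMM or DESeq2's size factors, other filters, no series term, RUVg, marker scores as covariates, DESeq2's Wald test and the likelihood ratio test. It was 1 in females (Ptprz1) and 1 in the average over the sexes in library series 1 alone, and leaving out each mouse gave 0 to 1 in females (Gpr17 without CD female E249). In series 1 alone and without E249, all females low in cortical excitatory markers were on the KD. At an unadjusted p under 0.05 the number of lineage genes was 2 in females, 1 in the average, 1 in the interaction and 4 between the sexes. With the striatal score these counts were 0 in all comparisons, with the cortical score 0 in females, in the average and between the sexes and 1 in the interaction, and with 2 RUVg factors 0 in females and between the sexes, 2 in the average, 1 in the interaction and 1 in males. Leaving out each mouse, these counts ran from 0 to 5 in females, 1 to 3 in the average, 0 to 3 in the interaction and 1 to 5 between the sexes, and stayed at 0 in males. With exchanges only within a library series, 1 gene in place of 2 had an exact permutation p under 0.05.

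Of 408 values of single genes under other settings, 378 kept their direction and side of the threshold, 29 changed sign and 1 passed the threshold. In females Pdgfra was -0.045 with the cortical score and -0.018 in series 2 alone. Ptprz1 in females was -0.057 with the striatal score, -0.24 with the cortical score, -0.17 in the 16 libraries and -0.22 in series 2. Enpp6 in females was -0.18 with the striatal score, -0.17 with the myelin score and -0.0038 in series 2. Nkx2-2 in females was 0.061 with no series term, 0.073 with 1 RUVg factor, 0.48 in series 1 and 0.054 with females alone. In males, the myelin score gave -0.063 for Pdgfra, 0.0061 for Olig1, 0.63 for Nkx2-2, 0.024 for Bcas1 and 0.22 for Enpp6. Series 2 alone gave -0.13 for Pdgfra, -0.016 for Cspg4, 0.10 for Sox10, 1.497 for Nkx2-2 and 0.49 for Enpp6 in males. Nkx2-2 in males was also 0.015 by DESeq2's Wald test and 0.038 with males alone. Between the sexes Pdgfra was -0.011 with the cortical score, and Ptprz1 was -0.015 with 2 RUVg factors, -0.061 with the cortical score and -0.11 in the 16 libraries. The cause of these changes was not tested.

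Leaving out each mouse gave -0.16 to 0.087 for Nkx2-2 in females and -0.31 to 0.31 in males, -0.0082 to 0.20 for Pdgfra and -0.018 to 0.49 for Cspg4 in males, where the lowest values were without KD male E64, and kept the sign of the other diet values within each sex. The interaction ran from -0.20 to 0.24 for Ptprz1, -0.077 to 0.50 for Cspg4 and -0.29 to 0.35 for Nkx2-2. Between the sexes Sox10 ran from -0.039 to 0.13 and Cspg4 from -0.015 to 0.23. In the average over the sexes Olig2, Sox10, Nkx2-2, Bcas1 and Enpp6 changed sign. Of the 45 correlations, 9 passed on the CPM scale and 10 on the upper-quartile scale, 8 of them shared; Sox10 with Ptprz1 and Olig2 with Nkx2-2 passed on the latter alone and Olig2 with Gpr17 on the former alone. Over all genes, the likelihood ratio test, DESeq2's Wald test and 2 RUVg factors called 1.4%, 1.62% and 1.62% in females in place of 0.0447%, and the numbers of genes were 370, 351 and 338 in the average in place of 42, and 286, 212 and 7 between the sexes in place of 21. No paired analysis was possible because the mice are numbered as animals and no number is shared between groups. With 4 to 6 mice a group, the 95% intervals reach a 1.5-fold change for 8 of the 10 genes in females, 7 in males, 10 in the interaction and 4 each in the average and between the sexes.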
